A study of Mus musculus with 8 samples.

Results

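The genes described here were the 100 protein-coding genes that were lower in E-cadLO than in E-cadHI tumor cells in every mouse by the widest margin. Read counts were scaled by each library's total to CPM, and the log2 ratio of E-cadLO to E-cadHI was taken within each of the 4 mice after adding 0.5 CPM to both values. Of 8721 protein-coding genes with a mean of at least 10 CPM in E-cadHI, the 100 whose largest of the 4 ratios was lowest were taken, out of 20312 protein-coding genes and 31894 genes with an identifier. Symbols beginning with Rpl, Rps, Nduf or mt- were to be left out, and 0 of the first 100 were of that kind. The measured ratios therefore chose the genes, and the ratios are given below as descriptions, without a test.

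The cells came from a mouse model of breast cancer brain metastasis. Mammary tumors driven by the polyoma middle-T antigen, which the mammary tumor virus promoter expresses in mammary epithelium, carried an E-cadherin-mCFP fusion as a fluorescent reporter and were grown in the brain over 6 rounds before organoids were made from them. The organoids were injected into the brains of mice aged 8 to 20 weeks, and the labels give the strain as FVB, the genotype as wild type and the tissue as brain metastasis tumor. From each of mice 57, 58, 67 and 70, tumor cells with high (E-cadHI) and low (E-cadLO) E-cad-mCFP fluorescence were sorted, which gave 4 libraries per group and 1 pair per mouse. All 8 libraries thus share the tumor model, and the purity of the sort was examined only on E-cadHI cells.

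Luminal cells of the mammary gland turn into milk-secreting alveolar cells under prolactin, whose receptor signals through Stat5 together with the transcription factor Elf5. Such cells make caseins, whey proteins and milk lipids, and rely on a large endoplasmic reticulum and Golgi apparatus for glycosylation and export. Mouse mammary tumors often keep part of this program, and E-cadherin marks cells that hold epithelial contacts.

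Library totals lay between 9108575 and 15780531 counts. The lincRNA Gm42418 took 14.4% of the counts of the E-cadLO library of mouse 58 and 7.66% of its E-cadHI library, against 2.23% to 3.93% in the other 6 libraries. The mRNA of the sorting marker, Cdh1, did not separate the groups. It was at 109, 132, 93.6 and 103 CPM in E-cadHI and at 85.0, 171, 87.6 and 53.7 CPM in E-cadLO of mice 57, 58, 67 and 70, which gave log2 ratios of -0.36, 0.37, -0.09 and -0.94.

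Markers of several brain and immune cell types had higher sums in E-cadLO, though not of every type in every mouse. The summed level of 15 microglia and macrophage markers was 42.2 to 516 CPM in E-cadHI and 245 to 1560 CPM in E-cadLO, and 15 of 15 were higher in E-cadLO in all 4 mice. Sums for 10 oligodendrocyte markers were 583 to 8322 and 1594 to 31295 CPM, with 5 markers higher and 1 lower in 4 of 4 mice. Those for 10 astrocyte markers were 1127 to 5876 and 1102 to 18264 CPM, with 7 higher in 4 of 4. Of the neuron markers 7 of 10 were higher in 4 of 4, of the endothelial 6 of 10 and of the erythrocyte 4 of 6. In each of those lists 0 were lower in 4 of 4. The astrocyte sum was not higher in mouse 57, at 1127 CPM in E-cadHI and 1102 CPM in E-cadLO. The 6 neutrophil markers summed to 22.3, 24.9, 15.8 and 18.3 CPM in E-cadHI and to 8.12, 8.89, 17.6 and 23.4 CPM in E-cadLO of mice 57, 58, 67 and 70, so that they were lower in 2 mice and 0 of them were higher in all 4. The 10 fibroblast markers summed to 7.59 to 21.4 CPM in E-cadHI, to 21.6, 32.7 and 43.9 CPM in E-cadLO of mice 58, 67 and 70, and to 1931 CPM in E-cadLO of mouse 57, while the fibroblast marker Dpt was at 0 in all 4 E-cadHI libraries. The part of these cells in the lower levels described below was not tested, and in bulk libraries fewer cells of a type and less RNA per cell cannot be told apart.

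Being lower in all 4 mice was common, but being lower by a wide margin in all 4 was not. A ratio below 0 in 4 of 4 mice was seen for 1775 of the 8721 genes (20.4%), and a ratio above 0 in 4 of 4 for 9.99% of them, which by the rule held 0 members. The largest of the 4 ratios was -1.17 for the gene placed first, Slc34a2, and -0.41 for the gene placed 100th, and Slc34a2 alone was at least 2-fold lower in all 4 mice. In the other direction the spread was wider: among 9368 genes with a mean of at least 10 CPM in E-cadLO, 166 were at least 2-fold higher in 4 of 4 mice and the smallest ratio of the gene placed 100th was 1.23.

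**Figure D1:**
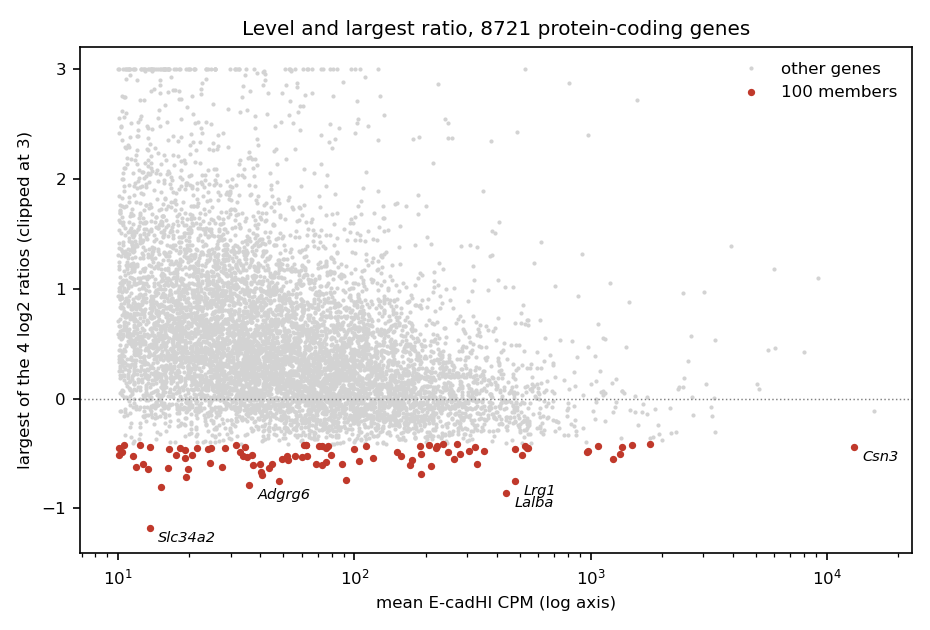
Mean E-cadHI CPM (log axis) against the largest of the 4 log2 ratios for 8721 protein-coding genes, with the 100 members in red and values above 3 drawn at 3. Members span 10.1 to 13015 CPM in E-cadHI, and their largest ratios lie between -1.17 and -0.41.

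The members differed in size of change between mice. Their median log2 ratios were -1.55, -0.58, -0.72 and -0.75 for mice 57, 58, 67 and 70, where those of all eligible genes were 0.15, -0.13, -0.05 and -0.1. Scaling libraries by trimmed mean of M-values (TMM) moved the median of all eligible genes to -0.15 in mouse 57. Scaling by protein-coding counts moved it to 0 in mouse 58. All 100 members stayed below 0 in 4 of 4 mice under both. The rule had kept all their ratios at -0.41 or below, and shifts of this size could not lift one above 0. Their sign under these scalings is therefore no check. In mouse 57, 72 members were at least 2-fold lower, where 8.62% of eligible genes were, and in mouse 58, 8 members were, where 1.18% of eligible genes were. Mice 67 and 70 each had 20 such members, with 2.33% and 1.94% of eligible genes. Mouse 57 held the lowest of the 4 ratios for 73 members, and 41 were at least 2-fold lower in that mouse alone. The ratio that set a member's place, the highest of its 4, came from mouse 58 for 46 members, from mouse 67 for 24, from mouse 70 for 21 and from mouse 57 for 9.

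**Figure D2:**
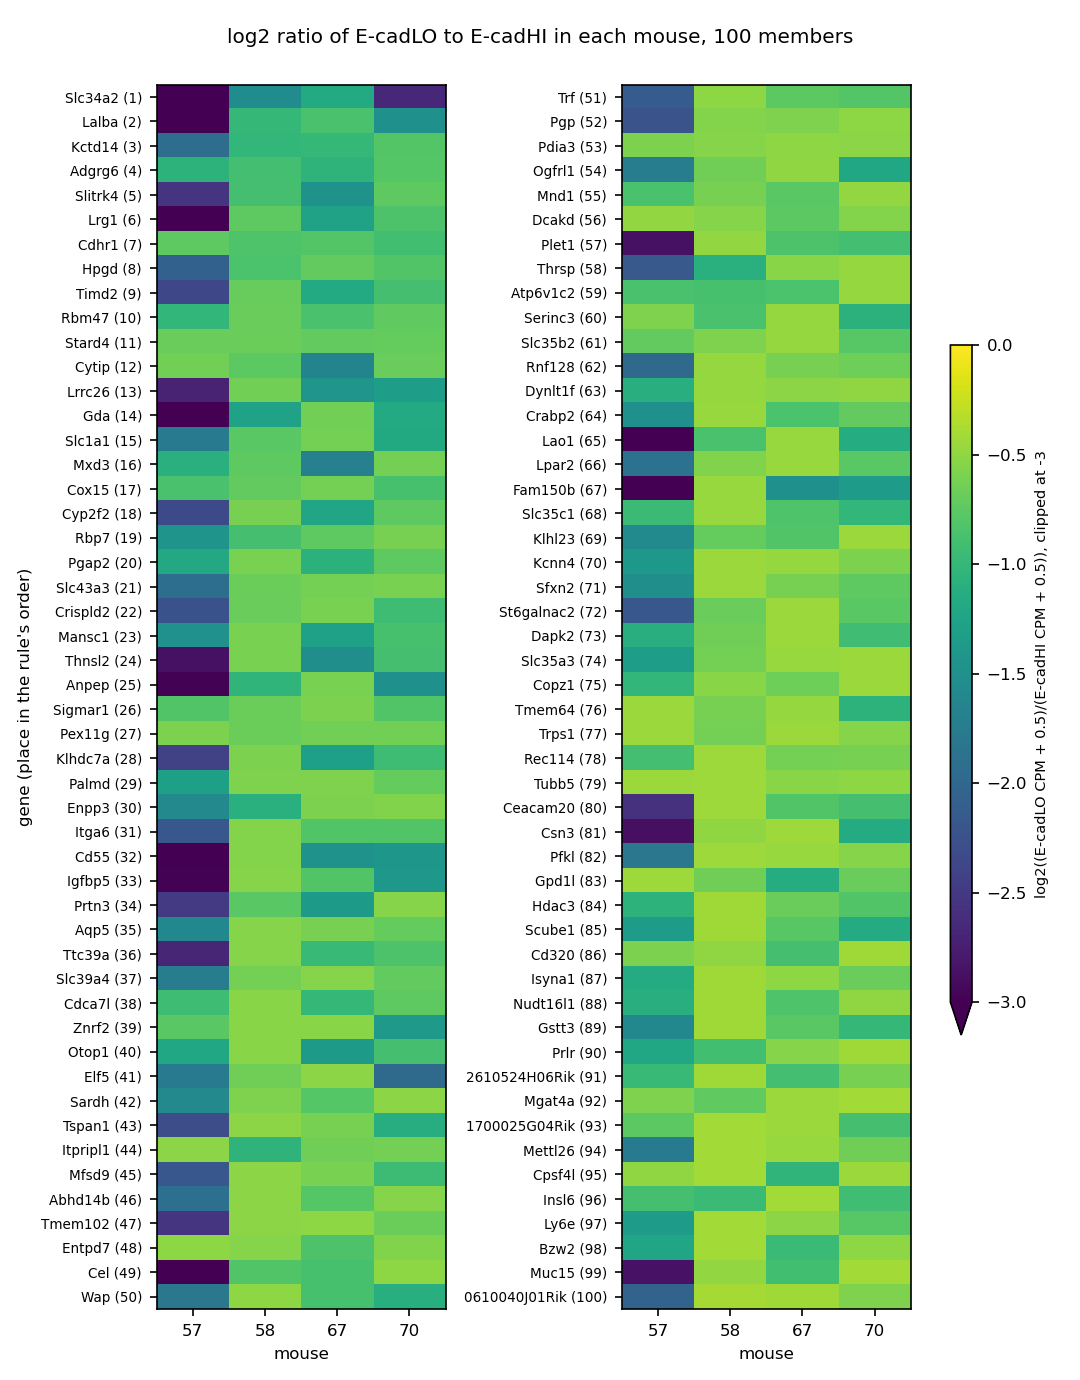
The log2 ratio of E-cadLO to E-cadHI for the 100 members (rows, in the rule's order) in mice 57, 58, 67 and 70 (columns), with values below -3 drawn as -3. The column of mouse 57 is the darkest, with a median of -1.55, and that of mouse 58 the palest, with a median of -0.58.

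Every E-cadLO library was below every E-cadHI library for 71 members, where this held for 6.51% of eligible genes. The 100 genes together took 2.87% to 3.83% of the counts in E-cadHI and 1.01% to 2.36% in E-cadLO. A single gene, Csn3, supplied much of this, and without it the shares were 1.92% to 2.36% and 0.795% to 1.47%. Of the 100 members, 71 had at least 100 counts in every library and 12 had fewer than 50 in some library. One member, 2610524H06Rik, had no exon length in the annotation used, and 22 overlap another protein-coding gene, so that their counts may hold reads of the neighbor.

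By function, assigned by hand once the members were known, 13 belonged to milk and alveolar secretion, 6 were other secreted proteins, 16 were cell surface proteins and receptors, 10 were transporters and channels, 10 served the endoplasmic reticulum, the Golgi apparatus or glycosylation, 17 were metabolic enzymes or bound lipids or retinoids, 10 acted in transcription, chromatin, RNA or translation, and 18 acted in signaling, ubiquitin transfer or the cytoskeleton or were uncharacterized. Secreted and surface proteins had the lowest ratios in mouse 57. There the median was -2.85 for milk and alveolar secretion, -2.37 for other secreted proteins and -2.03 for surface proteins, against -0.88 for the endoplasmic reticulum and Golgi group and -0.97 for the transcription group. In mouse 58 the 8 medians were close to each other, between -0.72 and -0.49.

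**Figure D3:**
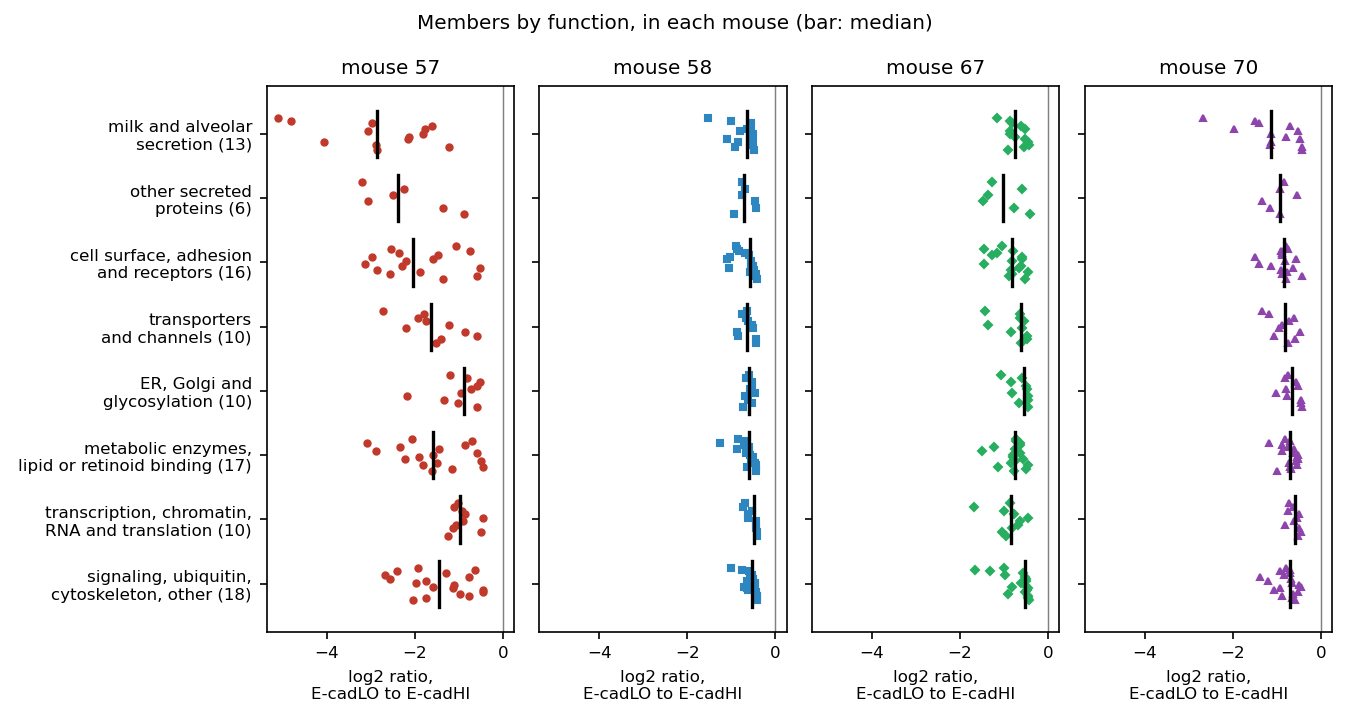
The log2 ratios of the 100 members by function (rows, number of members in brackets) in each mouse (panels), with a bar at each median. In mouse 57 the groups range from -2.85 for milk and alveolar secretion to -0.88 for the endoplasmic reticulum and Golgi group, and in mouse 58 they lie between -0.72 and -0.49.

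Milk proteins held both the highest and some of the lower levels among the members. Per kilobase of exon, the highest E-cadHI levels among members were those of Csn3 at 3135 CPM per kb, Lalba at 570 CPM per kb and Muc15 at 500 CPM per kb. Csn3 (ENSMUSG00000001622, chr5:87925579-87932665), kappa-casein, which keeps casein micelles in solution, was at 15815, 9283, 12074 and 14890 CPM in E-cadHI and at 2153, 6586, 8920 and 6726 CPM in E-cadLO of mice 57, 58, 67 and 70. Every E-cadLO value was below every E-cadHI value, and the log2 ratios were -2.88, -0.50, -0.44 and -1.15.

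Lalba (ENSMUSG00000022991, chr15:98480400-98482683), alpha-lactalbumin, the regulatory subunit of lactose synthase, was at 456, 267, 605 and 431 CPM in E-cadHI and at 15.6, 133, 334 and 152 CPM in E-cadLO. The groups overlapped, because E-cadLO of mouse 67 was above E-cadHI of mouse 58, but each mouse had a lower E-cadLO value, with ratios of -4.82, -1.0, -0.86 and -1.50. Muc15, a membrane mucin found on milk fat globules, was at 2201, 1428, 2551 and 956 CPM and at 305, 1014, 1354 and 717 CPM, with overlap between the groups. Its locus overlaps that of Ano3.

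Wap, the whey acidic protein, was at 49.1, 31.0, 32.2 and 35.8 CPM in E-cadHI and at 13.7, 21.6, 17.5 and 16.2 CPM in E-cadLO, without overlap. Cel, the bile salt-stimulated lipase secreted into milk, was at 22.6, 17.1, 12.6 and 17.9 CPM and at 2.29, 9.55, 6.70 and 12.4 CPM, also without overlap, although its highest E-cadLO and lowest E-cadHI values lay next to each other. Both were far less abundant than Csn3, and per kilobase Wap was at 36.7 and Cel at 8.35 CPM per kb in E-cadHI.

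Regulators of the alveolar program were also among the members. Elf5, the ETS-family factor that drives alveolar differentiation, was at 34.6, 72.4, 46.9 and 69.7 CPM in E-cadHI and at 9.79, 46.0, 32.5 and 17.6 CPM in E-cadLO, with ratios of -1.77, -0.65, -0.52 and -1.96. Its groups overlapped, since E-cadHI of mouse 57 was below E-cadLO of mouse 58. Prlr, the prolactin receptor, was at 199, 199, 254 and 175 CPM and at 85.5, 106, 174 and 130 CPM, and the groups did not overlap, though the nearest values were 175 and 174 CPM. Prlr differed from most members in that mouse 70 had the smallest change (-0.43) and mouse 58 a larger one (-0.91).

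**Figure D4:**
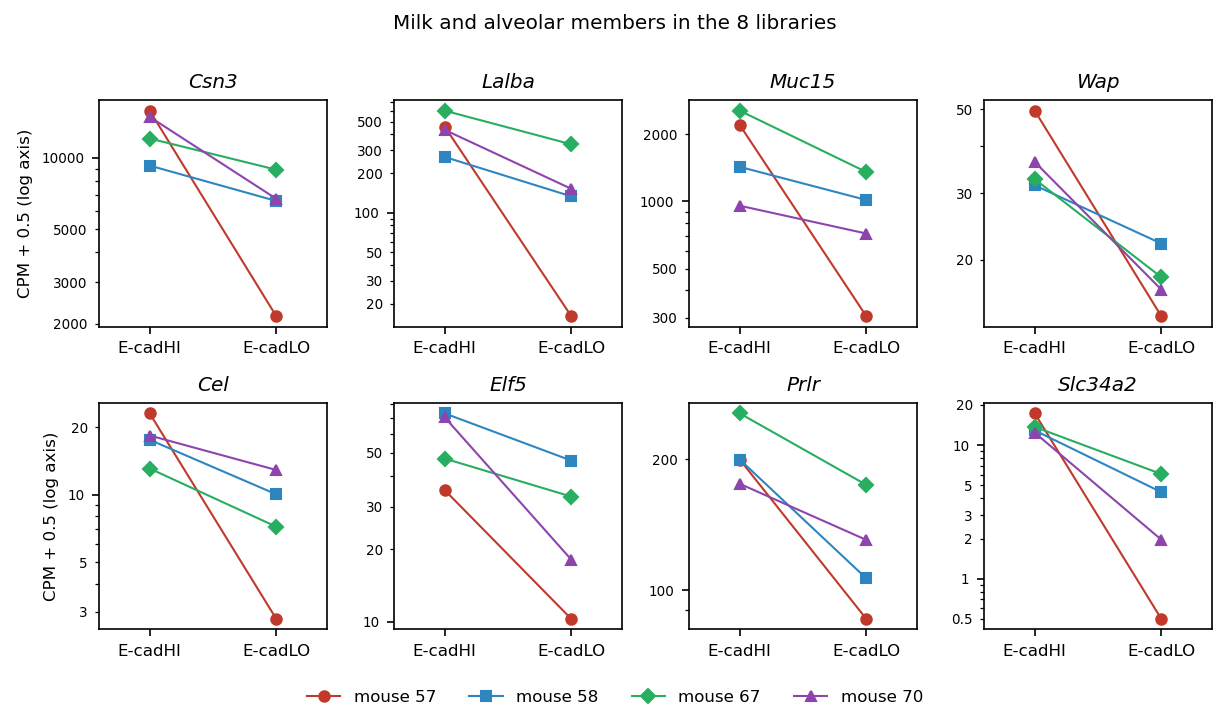
CPM plus 0.5 (log axis, scaled per panel) of 8 milk and alveolar members in the E-cadHI and E-cadLO library of each mouse, joined by a line per mouse. Every line falls and the lowest point of each panel is E-cadLO of mouse 57. Mouse 57 also has the longest drop in each panel but that of Elf5, where the ratio of mouse 70 (-1.96) is lower than that of mouse 57 (-1.77).

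Slc34a2 (ENSMUSG00000029188, chr5:53038081-53071664), a sodium-phosphate cotransporter placed by hand in the milk and alveolar group, headed the list. It was at 16.8, 12.4, 13.2 and 11.9 CPM in E-cadHI and at 0, 3.95, 5.58 and 1.46 CPM in E-cadLO. The groups did not overlap, and the ratios were -5.11, -1.54, -1.17 and -2.67. The E-cadLO library of mouse 57 held 0 counts, which 3 counts would bound at 0.265 CPM, so that E-cadHI was at least 63.5-fold higher in that mouse, with counting error only in view. Aqp5, Igfbp5 and Trf were also placed in that group by hand and are not on the list of milk proteins counted below. Aqp5, a water channel of secretory epithelia, had ratios of -1.60, -0.55, -0.62 and -0.71. Igfbp5, a secreted binding protein of insulin-like growth factors, had -2.98, -0.55, -0.82 and -1.4. Trf, the iron carrier transferrin, had -2.13, -0.51, -0.76 and -0.80.

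The sequences before the start sites of 4 of these members are shown because the windows differ in motif and CG content. They are from RefSeq on GRCm38.p6, 5′ to 3′ along the gene, and cover the 250 bases that end just before the start. Capitals mark matches on either strand to CAGGTG, the E-box form known to be bound by Snail and Zeb repressors, and to AGGAAG, a core form of sites for ETS factors such as Elf5. Neither motif can overlap the other, and a match is a description and not a bound site.
Lalba (chr15:98482684-98482933, minus strand): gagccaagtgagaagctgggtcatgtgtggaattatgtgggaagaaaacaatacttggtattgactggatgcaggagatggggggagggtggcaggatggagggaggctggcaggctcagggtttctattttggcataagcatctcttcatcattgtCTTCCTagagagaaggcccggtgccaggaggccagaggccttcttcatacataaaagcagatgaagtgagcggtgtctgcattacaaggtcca
Wap (chr11:6638650-6638899, minus strand): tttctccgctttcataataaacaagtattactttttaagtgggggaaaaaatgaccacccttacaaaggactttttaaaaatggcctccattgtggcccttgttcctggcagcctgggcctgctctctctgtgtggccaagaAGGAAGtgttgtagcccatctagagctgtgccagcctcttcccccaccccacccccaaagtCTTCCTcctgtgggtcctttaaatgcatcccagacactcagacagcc
Cel (chr2:28563404-28563653, minus strand): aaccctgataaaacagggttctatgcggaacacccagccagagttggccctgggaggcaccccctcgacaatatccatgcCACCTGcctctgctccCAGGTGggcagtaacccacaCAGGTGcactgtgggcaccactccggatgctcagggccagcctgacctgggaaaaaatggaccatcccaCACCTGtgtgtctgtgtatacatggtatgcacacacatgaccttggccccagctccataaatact
Slc34a2 (chr5:53049103-53049352, plus strand; the RefSeq start lies inside the deposited gene span): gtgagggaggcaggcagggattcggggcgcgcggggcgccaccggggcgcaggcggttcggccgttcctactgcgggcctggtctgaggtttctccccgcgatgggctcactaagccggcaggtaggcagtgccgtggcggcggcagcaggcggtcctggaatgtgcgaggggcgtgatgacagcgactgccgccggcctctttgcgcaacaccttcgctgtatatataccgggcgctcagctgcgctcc

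The Cel window held 4 CAGGTG matches and 0 AGGAAG matches, the Lalba window 1 AGGAAG match 93 bases before the start and the Wap window 2, at 108 and 47 bases before it. The Slc34a2 window held neither, with 28 CG dinucleotides against 2 in Lalba, 1 in Wap and 3 in Cel. Promoters of 80 of the 100 members and of 7059 of the 8721 eligible genes were in the RefSeq table. CAGGTG was in 20 of the 80 (25%), in 14.5% of the eligible promoters and in 17.1% of all 27025 promoters of that length. AGGAAG was in 24 of the 80, in 26.6% of eligible promoters and in 29.2% of all. TTCNNNGAA, the palindromic form known for Stat5 sites, was in 2 of 80 (2.5%), those of Cpsf4l and Copz1, and in 5.94% of eligible promoters. The median number of CG dinucleotides was 10 in members and 17 in eligible promoters.

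The wider set of milk genes and the general epithelial markers were counted in the same way. Of 17 eligible genes of a list of milk and mammary secretory proteins, 13 (76.5%) were lower in 4 of 4 mice and 0 were higher. The list holds 5 members, which are lower in 4 of 4 by the rule. They are counted in the 13 and in the medians, which raises that share and lowers those medians. The list's median ratios were -2.58, -0.30, -0.87 and -0.88 in mice 57, 58, 67 and 70. Of 16 eligible tumor epithelium markers, among them keratins, claudins and Epcam, 3 (18.8%) were lower in 4 of 4 mice and 3 were higher. Their medians were -0.50, 0.26, 0.03 and -0.45. Of all eligible genes, 20.4% were lower in 4 of 4 and 9.99% higher. With TMM scaling, 12 of the 17 milk genes and 3 of the 16 markers were lower in 4 of 4, against 19.6% of eligible genes. With scaling to protein-coding counts these were 11 and 2, against 15.4%. Without a block, edgeR called 0 of all 13598 genes tested in either direction, so the absence of calls in these lists says nothing about them. DESeq2 called 0.294% of all genes tested lower, among them 28 of the 100 members. With mouse as a block it called 1.51%, among them 79 members. Of the members on these lists, DESeq2 called Wap, and with the block Wap, Csn3, Muc15 and Trps1. Calls among the other genes of these lists are not given here. The members were chosen on the same ratios, so nothing about the lists follows from these calls. The difference between the lists was not tested.

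Of the 6 other secreted members, Lrg1 was placed 6th and the rest between 22nd and 96th. Lrg1 (chr17:56119680-56121946), a secreted leucine-rich glycoprotein, was at 638, 322, 560 and 394 CPM in E-cadHI and at 68.9, 191, 232 and 220 CPM in E-cadLO, without overlap. Its ratios were -3.20, -0.75, -1.27 and -0.84. Crispld2, a secreted cysteine-rich protein, had ratios of -2.25, -0.69, -0.60 and -0.93. Prtn3, known as a serine protease of neutrophil granules, was at 46.0, 55.0, 45.4 and 51.7 CPM and at 7.76, 32.1, 17.2 and 35.2 CPM, beside the neutrophil marker sums given above, which were lower in E-cadLO of mice 57 and 58 but not of mice 67 and 70.

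Among the surface proteins, Adgrg6 and Cdhr1 had ratios that varied little between mice. Adgrg6 (chr10:14402583-14545179), an adhesion G protein-coupled receptor, was at 36.3, 32.6, 41.6 and 33.2 CPM in E-cadHI and at 17.2, 17.2, 19.9 and 19.0 CPM in E-cadLO. The groups were far apart and the ratios were -1.06, -0.90, -1.05 and -0.79, a mean of -0.95 ± 0.13 (SD, n = 4 mice). Cdhr1 (chr14:37077850-37098311), a cadherin-related protein, was at 109, 83.6, 105 and 70.5 CPM and at 64.8, 46.9, 60.2 and 37.2 CPM, with a mean ratio of -0.82 ± 0.07 (SD, n = 4 mice). Mansc1, a membrane protein with a MANSC domain, varied more, with ratios of -1.48, -0.60, -1.28 and -0.87.

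Other surface members followed the pattern of the milk genes. Slitrk4 (chrX:64264885-64276996), a leucine-rich transmembrane protein best known from neurons, was at 48.2, 40.1, 68.7 and 35.1 CPM in E-cadHI and at 7.85, 21.5, 24.6 and 20.7 CPM in E-cadLO. Timd2, a receptor that takes up H-ferritin, was at 47.9, 34.5, 48.2 and 31.8 CPM and at 9.0, 21.1, 21.1 and 16.9 CPM. Neither overlapped, and mouse 57 had the lowest E-cadLO value of both. Cd55, which shields cells from complement, had ratios of -3.12, -0.56, -1.46 and -1.41, Anpep, the aminopeptidase N, had -2.98, -1.04, -0.60 and -1.49, and Plet1, a surface protein of mammary luminal progenitors and other epithelia, had -2.86, -0.49, -0.84 and -0.90. Itga6, the alpha 6 integrin that binds laminin, was the member found on the list of epithelial junctions, with -2.19, -0.56, -0.81 and -0.82. Of the 36 eligible genes of that list, 2 (5.56%) were lower in 4 of 4 mice and 2 were higher, while 20.4% of all eligible genes were lower. Ly6e, a GPI-anchored protein, was the surface member with the highest counts, at 1602, 1570, 1310 and 1476 CPM and at 630, 1174, 913 and 858 CPM, without overlap.

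Solute carriers were spread over the list. Of 151 eligible Slc genes, 7 were members and 40 (26.5%) were lower in 4 of 4 mice, against 20.4% of all eligible genes. Slc1a1, a glutamate and aspartate transporter, was at 49.2, 45.4, 45.3 and 34.2 CPM in E-cadHI and at 13.9, 26.5, 29.1 and 14.8 CPM in E-cadLO, without overlap. Slc39a4, the zinc importer, was at 19.5, 21.5, 18 and 17.9 CPM and at 5.47, 13.7, 12.2 and 10.6 CPM, without overlap. Slc43a3, a purine base transporter, was at 196, 132, 232 and 128 CPM and at 51.4, 82.8, 150 and 83.9 CPM, and overlapped. In Slc39a4 and Slc43a3, mice 58, 67 and 70 had ratios between -0.72 and -0.54, and mouse 57 had -1.74 and -1.92. Lrrc26, an auxiliary subunit of BK potassium channels in secretory epithelia, was low throughout, at 19.0, 7.30, 18.7 and 8.58 CPM and at 2.47, 4.50, 6.63 and 3.11 CPM.

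The secretory pathway members included some with even ratios across mice. Pdia3, a disulfide isomerase that folds glycoproteins, was at 1280, 1444, 1455 and 1149 CPM in E-cadHI and at 850, 993, 1023 and 804 CPM in E-cadLO. Its ratios were -0.59, -0.54, -0.51 and -0.52, a mean of -0.54 ± 0.04 (SD, n = 4 mice), and its locus overlaps Catsper2. Copz1, a subunit of the COPI vesicle coat, was at 613, 535, 533 and 498 CPM and at 305, 371, 337 and 365 CPM, without overlap. A further 3 members carry nucleotide sugars or sulfate donors into the Golgi apparatus: Slc35b2 had ratios of -0.72, -0.58, -0.48 and -0.78, Slc35c1 had -0.95, -0.46, -0.83 and -1.01, and Slc35a3 had -1.33, -0.63, -0.46 and -0.45. Of 34 eligible genes of protein entry into the endoplasmic reticulum and secretion, 24 (70.6%) were lower in 4 of 4 mice, against 20.4% of all eligible genes. With TMM scaling 20 (58.8%) were, against 19.6%. The list medians lay between -0.50 and -0.23, and Pdia3 and Copz1 were its 2 members. Such a share was not particular to secretion, as it was 66.7% for mitochondrial import, 63.8% for proteasome and 63.2% for mitochondrial ribosome genes.

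Metabolic members were mostly low to moderate in level. Stard4, which carries cholesterol between membranes, had the narrowest spread of the first 15 members, at 44.6, 40.6, 34.5 and 41.6 CPM in E-cadHI and 27.5, 25.3, 20.7 and 25.3 CPM in E-cadLO, a mean ratio of -0.70 ± 0.02 (SD, n = 4 mice). Hpgd, which inactivates prostaglandins, was at 18.6, 15.1, 27.4 and 16.5 CPM and at 4.06, 8.12, 16.5 and 9.19 CPM, and the groups overlapped. Gda, the guanine deaminase, was at 14.1, 16.8, 17.1 and 16.8 CPM and at 1.24, 6.70, 10.8 and 7.22 CPM, without overlap. Retinoid handling was represented by Crabp2, which brings retinoic acid to its receptor, with ratios of -1.49, -0.46, -0.85 and -0.72, and Rbp7, a retinol-binding protein, with -1.45, -0.88, -0.75 and -0.61. Pfkl, the liver-type phosphofructokinase of glycolysis, had -1.81, -0.44, -0.46 and -0.54. Of 25 eligible glycolysis and hypoxia genes, 4 (16%) were lower in 4 of 4 mice, against 20.4% of all eligible genes.

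The members acting in transcription and RNA handling included regulators of luminal and epithelial cells. Rbm47, an RNA-binding protein that shapes splicing in epithelia, was at 164, 184, 243 and 178 CPM in E-cadHI and at 81.2, 114, 134 and 107 CPM in E-cadLO, without overlap, and its mean ratio was -0.82 ± 0.15 (SD, n = 4 mice). Trps1, a GATA-type repressor of luminal cells, was at 246, 391, 422 and 240 CPM and at 180, 252, 309 and 165 CPM, and its groups overlapped although its 4 ratios lay between -0.63 and -0.45. Bzw2, a translation regulator that overlaps Ankmy2, had ratios of -1.24, -0.42, -0.95 and -0.51. Hdac3, a histone deacetylase, had -1.06, -0.43, -0.69 and -0.81. Trps1 and Elf5 were the 2 members on a list of epithelial transcription and splicing factors. Among its 25 eligible genes, 11 (44.0%) were lower in 4 of 4 mice and 2, Elf3 and Ovol1, were higher. The shares of all eligible genes were 20.4% lower and 9.99% higher. With scaling to protein-coding counts, 9 of the 25 were lower, against 15.4% of all eligible genes. Both counts of lower genes hold Trps1 and Elf5, which are lower in 4 of 4 by the rule.

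In the remaining group, Kctd14 (chr7:97451323-97459557), a BTB-domain protein, was at 14.5, 15.1, 17.9 and 12.9 CPM in E-cadHI and at 3.44, 7.25, 8.73 and 7.16 CPM in E-cadLO, without overlap. Cytip, which restrains cytohesins and is best known from lymphocytes and dendritic cells, was at 15, 21.1, 26.8 and 16.2 CPM and at 9.44, 12.3, 8.24 and 9.82 CPM. Mouse 67, not mouse 57, had its lowest ratio, and T and B lymphocyte markers summed to 0.223 to 1.18 CPM in E-cadHI and to 0.659 to 4.69 CPM in E-cadLO, with a lower sum in E-cadLO in mouse 58 (0.845 and 0.659 CPM). Tubb5, a beta-tubulin, was at 1345, 1184, 1693 and 1219 CPM and at 986, 873, 1168 and 857 CPM, without overlap, with a mean ratio of -0.48 ± 0.05 (SD, n = 4 mice). Dynlt1f has near-identical copies in the genome, so that its counts (-1.11, -0.47, -0.52 and -0.50) are uncertain.

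At the threshold, neighbors hardly differed. The last 3 members, Bzw2, Muc15 and 0610040J01Rik, and the first 3 genes left out, Tmem53, Pbk, a mitotic kinase, and Pdcd4, a translation inhibitor, had largest ratios between -0.42 and -0.41. For 0610040J01Rik, an uncharacterized gene, the values were 285, 229, 223 and 213 CPM in E-cadHI and 69.1, 172, 165 and 142 CPM in E-cadLO. Pdcd4, just outside, had ratios of -0.41, -0.64, -0.43 and -0.60.

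The only reading of the ratios that the choice did not use came from leaving a mouse out. The rule was applied to 3 mice and the 100 genes so chosen were read in the fourth. In mouse 57 their median log2 ratio was -1.20 against 0.16 for all eligible genes, and 85 were below 0, against 43.1% of eligible genes. In mouse 67 the median was -0.53 against -0.05, with 83 below 0 against 54.0%, and in mouse 70 it was -0.39 against -0.10, with 82 below 0 against 59.6%. In mouse 58 the chosen genes were hardly apart from the rest, with a median of -0.20 against -0.13 and 69 below 0 against 66.0%. Leaving out mouse 58 also changed the choice the most. Only 28 of the 100 members were then chosen, against 75 without mouse 57, 61 without mouse 67 and 48 without mouse 70. The choice held 5 genes of the milk list with all mice, 3 without mouse 57, 8 without mouse 58, 3 without mouse 67 and 2 without mouse 70. All of the first 15 members were chosen again without mouse 57, 67 or 70, and 9 of the 15 without mouse 58. With protein-coding counts as the library size, the genes chosen without mouse 58 had a median of -0.06 in it against 0 for eligible genes, and with TMM -0.08 against -0.05.

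**Figure D5:**
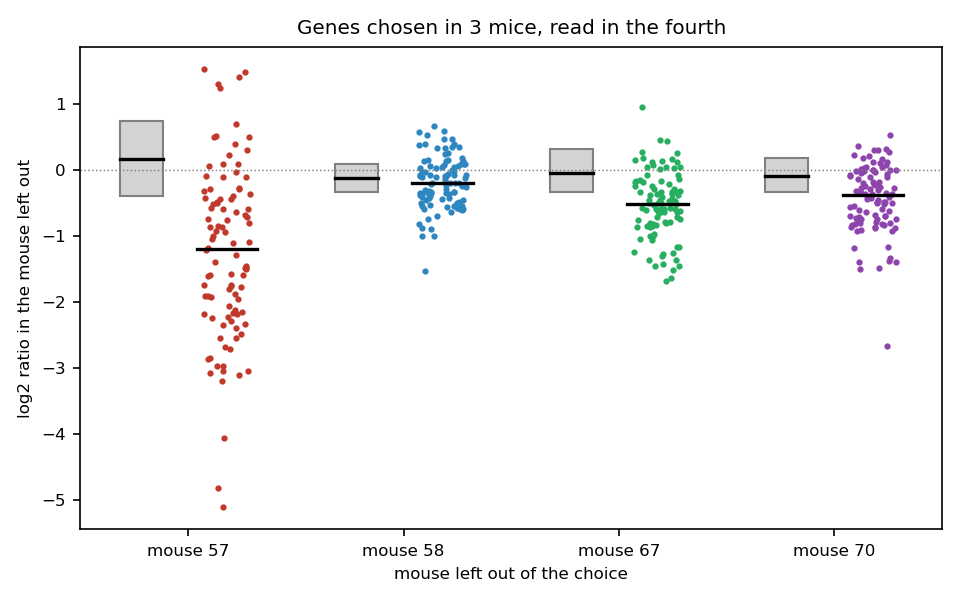
For each mouse, the log2 ratios in that mouse of the 100 genes chosen from the other 3 mice (points, bar at the median), beside all eligible genes (grey box over the interquartile range, bar at the median). The chosen genes lie lower in mice 57 (-1.20), 67 (-0.53) and 70 (-0.39), while in mouse 58 the bars at -0.20 and -0.13 nearly meet.

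Fitted across all 13598 genes tested, edgeR's quasi-likelihood test called 0 genes lower in E-cadLO at a Benjamini-Hochberg adjusted p under 0.05 (0.0%), with or without mouse as a block. At an unadjusted p under 0.05, 790 genes (5.81%) were lower, 87 of them members, and with the block 997 (7.33%), 99 of them members. DESeq2 called 43 of 14606 genes lower (0.294%), 28 of them members, and with mouse as a block 216 of 14344 (1.51%), 79 of them members. Because the same ratios chose the members, nothing about the members follows from these counts. The median fitted log2 fold change was -0.88 in members and -0.06 in eligible genes. Adgrg6 and Cdhr1 had the fitted values -1.01 ± 0.19 and -0.89 ± 0.19 (standard error), Slc34a2 had -2.32 ± 0.94 and Lalba -1.48 ± 0.70.

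In gene structure the members were slightly shorter than the eligible genes. Their median exon length was 3.63 kb against 4.62 kb and their median span 19.7 kb against 24.6 kb, and 48 members overlapped some annotated gene, against 54.8% of eligible genes. They lay on 19 autosomes and the X chromosome with 13 of 688 eligible genes on chromosome 2 and 8 of 344 on chromosome 15 as the highest numbers, and Lalba, Aqp5, Prlr and Trps1 are among those on chromosome 15.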

How the data were processed

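RNA of 8 sorted populations was sequenced as 65-base single reads, aligned by the authors with HISAT2 2.1.0 to GRCm38 and deposited as 1 table of raw read counts per gene, without normalization. The submitters' notes name HTSeq for counting and the methods name Icount, and strand and treatment of multiply mapped reads are not given in the sources used here. Groups came from the labels. Columns of another sample numbered 0. Entries without an identifier (365 of 32259, 0.0636% to 0.0954% of counts) were left out of tests.

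CPM used the column total over all entries. edgeR 4.0.16 (quasi-likelihood test, unpaired, filterByExpr, TMM) was fitted to all genes, with DESeq2 1.42.0 and mouse as a block as alternatives. edgeR was also run on simulated counts with 200 genes changed 4-fold and no effect of mouse. That run says nothing about smaller changes or about libraries paired by mouse. The number pairs libraries of the same mouse, whose deviations from the group means correlated at 0.392, 0.242, 0.249 and 0.688. Promoters were matched by symbol or by a unique RefSeq synonym, and exon lengths came from GENCODE M21. Genes named in the text were the first 15 members, the 5 with the highest E-cadHI CPM, up to 4 per gene list with 2 or more members and 3 on each side of the threshold, and further members given as examples of their group were chosen after their values were seen. The members, gene lists and groups were chosen with earlier results of these data known. Alternatives were the pseudocount, CPM minimum, library size, count filter and each mouse left out.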

Additional observations from a re-analysis of the deposited data

Results flagged for a closer look

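In 7 of 48 sets of 4 mice examined (log2 ratios of the named genes, the medians over members and the CPM of 7 milk and alveolar members), a mouse lay far from the other 3, past Dixon's 95% critical gap. Chance passes it in about 1 in 20 sets of values that were not selected, a rate that does not apply here, because the choice of members caps the highest of the 4 ratios and leaves the lowest free, and because the sets share the same mice. Mouse 57 was the distant mouse in 6, with log2 ratios of -4.82 for Lalba, -3.05 for Cel, -2.07 for Hpgd, -2.04 for 0610040J01Rik, -1.92 for Slc43a3 and -1.74 for Slc39a4. Mouse 67 was distant for Cytip, at -1.65. The E-cadLO library of mouse 57 also held 1931 CPM of fibroblast markers, against 21.6 to 43.9 CPM in the other E-cadLO libraries, and its part in these ratios was not tested.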

How the results depend on the processing

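Genes called lower by edgeR numbered 0 under each edgeR alternative, and 43 with DESeq2 and 216 with DESeq2 and mouse as a block. Genes called higher numbered 0, against 99 with mouse as a block, 23 without a filter on low counts, 3 with at least 10 counts in every library, 386 with DESeq2 and 1031 with DESeq2 and the block. The causes were not tested. In edgeR, blocking by mouse changed only the number of genes called higher, and in DESeq2 it raised the numbers in both directions. Of the 100 members, 28 (without mouse 58) to 75 (without mouse 57) were chosen again with a mouse left out, with 61 without mouse 67 and 48 without mouse 70, and 75 to 100 under another pseudocount, CPM minimum, library size or order of exclusion. The protein-coding library size for the left-out mice was chosen after seeing the data. Of 256 values of named genes under alternatives, 256 stayed below 0 and 4 moved by more than the spread between mice. These genes had ratios of -0.41 or below in every mouse by the rule or lay next to its threshold. Their sign in refits of the same libraries is therefore no check. With 4 mice per group and no called gene, small differences between members are not resolved, and members with fewer than 50 counts in a library have the least precise ratios.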
